A study of Arabidopsis thaliana with 5 samples.

Results

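The 10 genes described here are transcription factors and 1 co-regulator known to act in the cells of the seed coat that make mucilage. They were chosen by gene ID for their known role, after earlier results of these data were known, as 10 of the 37336 genes in the table: MYB61, KNAT7, GL2, MYB5, AP2, TTG2, MUM1, DF1, MYB52 and NARS1. Of these, 8 had enough counts to be tested among 19003 genes, and MYB5 and DF1 were listed at 0 in every library. RNA-seq of developing Arabidopsis thaliana seeds, 9 days after pollination by the labels and methods and 10 by the text of the results, was compared between dof4.1-3 (3 libraries) and the wild type Col-0 (2 libraries). The dof4.1-3 line carries a T-DNA insertion in the second exon of DOF4.1, a Dof-type zinc finger gene, in the Col-0 background that both groups share. In the labels the allele number is missing. It is 1 insertion line, no second allele was sequenced, and the sources do not say whether libraries came from separate plants, so the spread that p-values are set against could be technical.

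The mucilage cells are the epidermis of the seed coat and arise from the outer integument of the ovule. They fill with pectin, lay down a secondary wall column, and release the pectin as a gel when the mature seed is wetted. Their known regulators form a cascade: AP2 and the NARS factors act in integument differentiation, a complex of MYB, bHLH and WD40 proteins that holds MYB5 switches on GL2 and TTG2, and MYB61, KNAT7, MUM1, DF1 and MYB52 control mucilage and wall genes.

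Gene counts totalled 20101091 to 21722055 in the dof4.1-3 libraries and 16500028 to 17049283 in the Col-0 libraries. DOF4.1 itself (AT4G00940) had 3, 4 and 4 counts in dof4.1-3 and 1 and 14 in Col-0, below the minimum for a test, so it cannot check the labels. Markers of embryo, endosperm, inner integument and seed coat epidermis were found, as whole seeds should hold. Some had few counts, and 5 of 7 endosperm and 6 of 7 inner integument markers had enough to be tested. Those of silique wall summed to at most 24.5 CPM (the usual unit of counts relative to library size, here with edgeR's TMM factors) and those of pollen to at most 25.3 CPM. Cruciferin and napin storage protein genes took 14.0% to 28.2% of counts in dof4.1-3 and 6.12% to 9.82% in Col-0. Over all tested genes, edgeR's quasi-likelihood test with Benjamini-Hochberg adjustment called 183 genes lower and 23 higher in dof4.1-3 at an adjusted p under 0.05.

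DOF4.1 belongs to a family whose proteins bind the core AAAG. The 250 bases before the annotated start are shown for 4 members that span the responses described next, the pair with the lowest p (MYB61 and KNAT7), the single member higher in every dof4.1-3 library (MUM1) and a member with near-equal levels (AP2). Capitals mark the core AAAG, or CTTT where it lies on the other strand. All are on the plus strand of the TAIR10.1 RefSeq assembly.
MYB61, chr1:3085851-3086100: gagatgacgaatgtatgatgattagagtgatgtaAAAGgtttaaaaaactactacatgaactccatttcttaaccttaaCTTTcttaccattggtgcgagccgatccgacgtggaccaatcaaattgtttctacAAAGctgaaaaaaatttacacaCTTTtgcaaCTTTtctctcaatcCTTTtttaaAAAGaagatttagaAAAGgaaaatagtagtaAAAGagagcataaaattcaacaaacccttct
KNAT7, chr1:23336917-23337166: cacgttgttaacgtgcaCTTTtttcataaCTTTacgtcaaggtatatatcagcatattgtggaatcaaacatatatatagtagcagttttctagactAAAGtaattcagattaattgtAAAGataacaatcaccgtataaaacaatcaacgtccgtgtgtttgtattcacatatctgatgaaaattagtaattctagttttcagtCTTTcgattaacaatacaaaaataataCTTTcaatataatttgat
MUM1, chr2:13866471-13866720: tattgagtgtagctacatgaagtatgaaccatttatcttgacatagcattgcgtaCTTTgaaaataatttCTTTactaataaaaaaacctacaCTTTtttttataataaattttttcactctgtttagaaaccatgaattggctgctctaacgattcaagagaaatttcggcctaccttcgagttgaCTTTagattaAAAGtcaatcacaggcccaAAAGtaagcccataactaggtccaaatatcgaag
AP2, chr4:17400360-17400609: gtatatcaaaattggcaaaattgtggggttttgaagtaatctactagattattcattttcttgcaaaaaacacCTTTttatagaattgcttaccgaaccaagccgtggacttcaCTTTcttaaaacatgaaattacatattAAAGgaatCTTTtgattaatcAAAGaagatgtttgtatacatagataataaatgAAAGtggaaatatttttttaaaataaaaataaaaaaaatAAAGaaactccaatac
The MYB61 window held 9 cores, the AP2 window 7, and the KNAT7 and MUM1 windows 6 each. All 10 members had at least 3 (GL2), but so common a word separates few genes: 97.97% of 27443 promoters of protein-coding genes held the core, with a median of 4, and 3.21% had 9 or more. The W-box core TTGAC, which WRKY proteins such as TTG2 bind, was in 5 of the 10 windows, 3 times in that of MUM1, against 44.9% of all promoters. The E-box CANNTG, bound by bHLH proteins, was in 3 of 10 against 55.3%, and neither the AC element ACCNACC of MYB proteins (6.10% of all) nor the L1 box TAAATGTA of HD-ZIP IV proteins such as GL2 (3.00% of all) was found. Both strands were searched in these windows, and a match describes letters, not a bound site.

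By level per length (RPKM, from the same counts and RefSeq transcript lengths), GL2 and NARS1 were the most abundant members, at 53.0 ± 12.1 and 61.1 ± 7.59 RPKM in dof4.1-3 and 79.1 ± 13.2 and 78.5 ± 7.06 RPKM in Col-0 (SD, n = 3 and n = 2). KNAT7 followed with 32.4 ± 2.33 RPKM in dof4.1-3 and 54.9 ± 1.26 RPKM in Col-0, then MYB61 with 22.5 ± 0.537 RPKM in dof4.1-3 and 34.8 ± 3.01 RPKM in Col-0. MUM1, AP2 and TTG2 had 15.9 ± 1.53, 12.6 ± 0.447 and 5.04 ± 1.04 RPKM in dof4.1-3 and 12.5 ± 1.57, 12.3 ± 0.131 and 5.21 ± 0.156 RPKM in Col-0. MYB52 was lowest of those with counts, at 0.924 ± 0.508 RPKM in dof4.1-3 and 1.60 ± 0.167 RPKM in Col-0. The order was thus the same in both genotypes but for GL2 and NARS1, whose libraries overlapped in each. MUM1 and AP2 overlapped in Col-0, with MUM1 at 11.4 and 13.6 RPKM and AP2 at 12.2 and 12.3 RPKM, but not in dof4.1-3, where the lowest MUM1 library had 14.4 RPKM and the highest AP2 library 13.1 RPKM. GL2 and NARS1 lay above 92.2% and 92.7% of tested genes and MYB52 above 15.6%.

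No member passed the adjusted threshold of edgeR, where 0.963% of tested genes were called lower, 0.121% higher and 1.08% in either direction. At an unadjusted p under 0.05, 3 of the 8 tested members were lower (KNAT7, MYB61 and GL2) and 0 higher, against 9.52% and 6.33% of all tested genes. DESeq2, the tool of the study, called 2 members lower, KNAT7 and MYB61, where it called 2.96% of genes lower and 1.22% higher, and limma-voom called 0. In 4 of the 8 (KNAT7, MYB61, GL2 and NARS1) every dof4.1-3 library lay under both Col-0 libraries, as in 18.3% of tested genes, and in 1 (MUM1) every one lay above, as in 16.3%. The median log2 fold change of the 8, dof4.1-3 over Col-0, was -0.47, against 0.03 for all tested genes. In bulk seeds, fewer cells of a type and less RNA per cell cannot be told apart. With 3 libraries against 2, no exact permutation test of a single gene can give a two-sided p below 0.1.

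**Figure D1:**
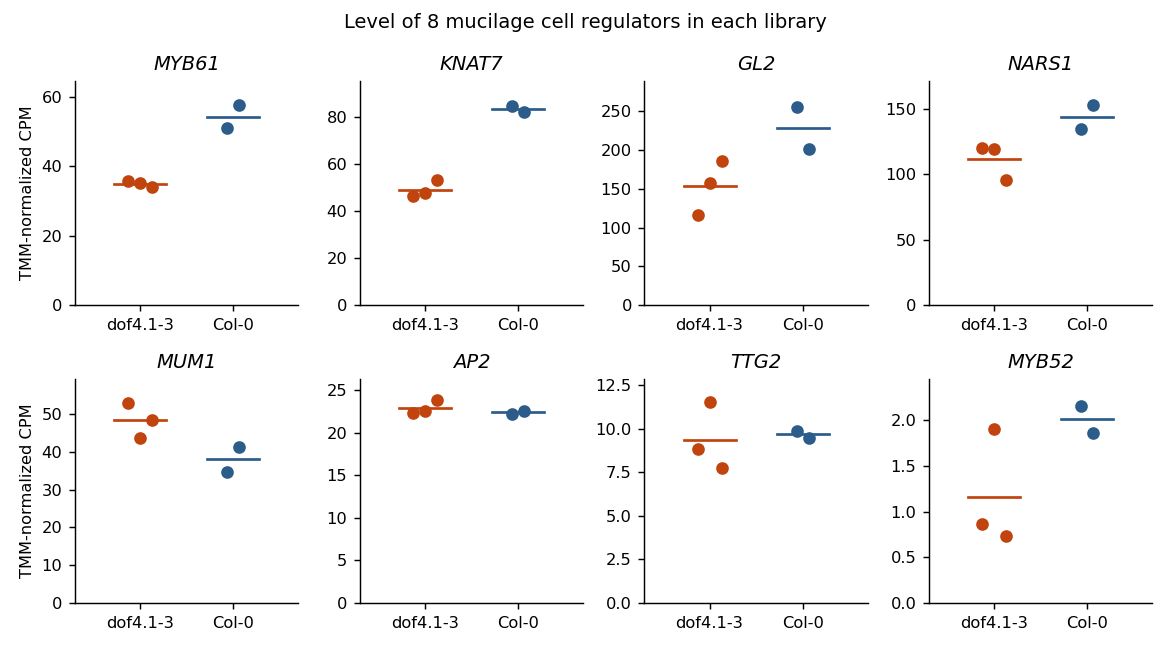
Level of the 8 tested regulators in each library, with the TMM-normalized CPM on a linear axis from 0, dof4.1-3 (3 points) left of Col-0 (2 points) and the group mean as a line. MYB61 and KNAT7 separate widely, from 34.1 to 35.8 CPM in dof4.1-3 against 50.9 and 57.6 CPM in Col-0 for MYB61, while AP2 stays between 22.2 and 23.8 CPM in all 5 libraries.

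Among the early integument regulators, AP2 showed near-equal levels and NARS1 a lower level that missed the threshold. AP2 (AT4G36920, chromosome 4: 17400610 to 17403469), the APETALA2 factor known from floral organ identity and seed size, had 22.3, 22.6 and 23.8 CPM in dof4.1-3 libraries 1 to 3 and 22.2 and 22.5 CPM in Col-0 libraries 1 and 2. The groups overlapped, and the log2 fold change of 0.03 had a 95% interval of -0.37 to 0.44 (edgeR adjusted p = 0.945). NARS1 (AT3G15510, NAC2 in RefSeq), a NAC factor that shapes the integuments together with NARS2, had 120, 120 and 95.9 CPM in dof4.1-3 and 135 and 153 CPM in Col-0. Every dof4.1-3 library was lower, but the log2 fold change of -0.36 had a standard error of 0.20 and did not pass (edgeR adjusted p = 0.421).

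Of the members in the MYB-bHLH-WD40 branch, GL2 and TTG2 had counts. GL2 (AT1G79840, chromosome 1: 30036956 to 30041440), a homeodomain-leucine zipper factor of trichomes, root hairs and mucilage cells, had 117, 158 and 186 CPM in dof4.1-3 and 256 and 202 CPM in Col-0. All of its dof4.1-3 libraries were under both Col-0 libraries, but they spread widely, with a mean of 154 ± 35.0 CPM in dof4.1-3 and 229 ± 38.2 CPM in Col-0 (SD, n = 3 and n = 2). Its log2 fold change was -0.58 (standard error 0.25, 95% interval -1.13 to -0.03), with an unadjusted p of 0.0411 and an adjusted p of 0.291 by edgeR and 0.256 by DESeq2. Without Col-0 replicate 1, its highest library, the value was -0.39, and 6.18% of the GL2 exon bases are shared with neighbouring genes. TTG2 (AT2G37260), a WRKY factor known from trichomes, tannins and mucilage, had 8.84, 11.5 and 7.74 CPM in dof4.1-3 and 9.87 and 9.46 CPM in Col-0. Its dof4.1-3 libraries lay on both sides of Col-0, with a log2 fold change of -0.05 and a 95% interval of -0.57 to 0.48 (edgeR adjusted p = 0.943).

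Of the late regulators, KNAT7 and MYB61 had the smallest p-values of the 8 tested members. KNAT7 (AT1G62990, chromosome 1: 23337167 to 23340692), a class II KNOX homeodomain protein of xylem and interfascicular fibres as well as mucilage cells, had 46.7, 47.8 and 53.3 CPM in dof4.1-3 (1026, 881 and 1027 counts) and 84.9 and 82.2 CPM in Col-0 (1377 and 1678 counts). The groups were far apart relative to their spread, at 49.3 ± 3.55 CPM in dof4.1-3 and 83.6 ± 1.91 CPM in Col-0 (SD, n = 3 and n = 2), so that dof4.1-3 seeds held 59.0% of the Col-0 level. The log2 fold change was -0.76 (standard error 0.18, 95% interval -1.17 to -0.36), with an unadjusted p of 0.00189 and an adjusted p of 0.0860 by edgeR. DESeq2 gave the same fold change with an adjusted p of 0.00836.

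MYB61 (AT1G09540, chromosome 1: 3086101 to 3087914), an R2R3-MYB factor needed for mucilage deposition and known also from lignin and stomatal control, had 35.8, 35.3 and 34.1 CPM in dof4.1-3 (785, 650 and 657 counts) and 50.9 and 57.6 CPM in Col-0 (826 and 1175 counts). Its dof4.1-3 libraries were nearly equal, at 35.1 ± 0.837 CPM against 54.3 ± 4.69 CPM in Col-0 (SD, n = 3 and n = 2), or 64.6% of the Col-0 level. The log2 fold change was -0.63 (standard error 0.18, 95% interval -1.03 to -0.24), with an unadjusted p of 0.00530 and an adjusted p of 0.125 by edgeR and 0.0489 by DESeq2. The calls of KNAT7 and MYB61 by DESeq2 did not hold when libraries were left out: MYB61 was called in none of the 5 fits, with adjusted p between 0.0975 and 0.615, and KNAT7 in 1, without dof4.1-3 replicate 2 (adjusted p = 0.0307, otherwise 0.0676 to 0.539).

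MUM1 was the single member whose libraries were all higher in dof4.1-3. MUM1 (AT2G32700, LUH in RefSeq, chromosome 2: 13866721 to 13872246), a LEUNIG-like co-regulator needed for the expression of mucilage-modifying enzymes, had 53.0, 43.7 and 48.4 CPM in dof4.1-3 and 34.6 and 41.4 CPM in Col-0. The gap between groups was narrow, and the log2 fold change of 0.35 (standard error 0.19, 95% interval -0.08 to 0.78) did not pass (edgeR adjusted p = 0.413). Fold changes in these libraries increased with transcript length, with medians of -0.30 in the shortest 10% of tested genes and 0.29 in the longest 10%. MUM1, with a transcript of 3045 bases, is longer than 88.9% of tested genes, and its value was 0.13 with that trend removed. KNAT7 and MYB61, with 1521 and 1558 bases, moved little, to -0.71 and -0.59. GL2, with 2895 bases, moved down as MUM1 did, from -0.58 to -0.79 (edgeR adjusted p = 0.242), which made its decrease larger.

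MYB52 (AT1G17950), an R2R3-MYB factor that promotes genes of pectin methylesterase inhibitors, had few reads, with 19, 35 and 14 counts in dof4.1-3 and 35 and 38 in Col-0. At 0.866, 1.90 and 0.727 CPM in dof4.1-3 and 2.16 and 1.86 CPM in Col-0, dof4.1-3 replicates 1 and 3 were low and replicate 2 lay within the Col-0 range. The log2 fold change was -0.79 with a 95% interval of -1.85 to 0.27 (edgeR adjusted p = 0.451), and -1.32 without dof4.1-3 replicate 2, so this depth leaves both no change and a large decrease possible.

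**Figure D2:**
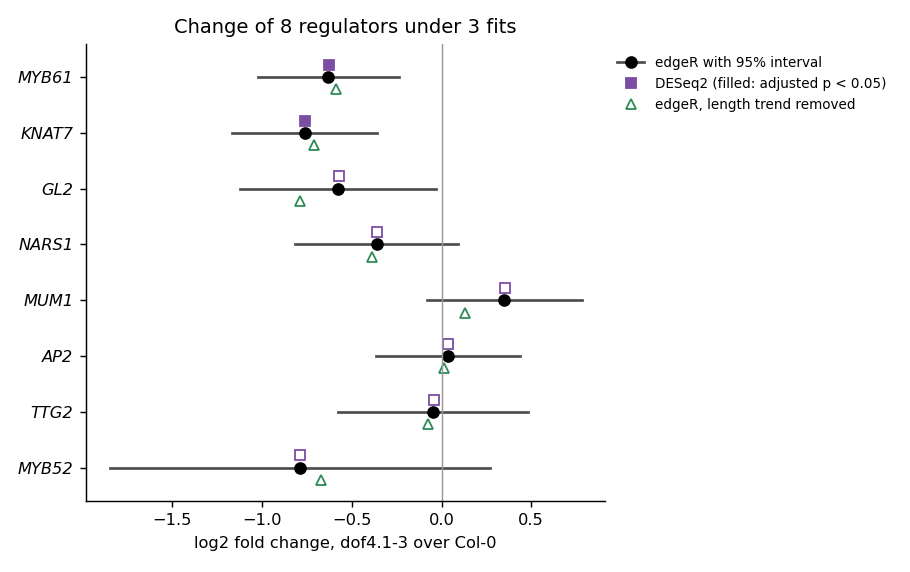
Log2 fold change of the 8 tested regulators, dof4.1-3 over Col-0, under edgeR (circle, with its 95% interval as a line), DESeq2 (square, filled at an adjusted p under 0.05) and edgeR with the trend over transcript length removed (triangle). DESeq2 calls MYB61 and KNAT7 at nearly the same fold changes as edgeR, -0.63 and -0.76, and MUM1 shrinks to 0.13 without the length trend.

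The zeros of MYB5 and DF1 cannot be read as absence of their RNA. MYB5 (AT3G13540, chromosome 3: 4419960 to 4421751) is an R2R3-MYB partner of the bHLH and WD40 proteins, and in the TAIR10.1 annotation all of its 1337 exon bases lie inside exons of AT3G13530, a kinase gene (MAPKKK7) on the opposite strand, which had 379, 210 and 252 counts in dof4.1-3 and 203 and 353 in Col-0. DF1 (AT1G76880, chromosome 1: 28865314 to 28868225) is a trihelix factor of mucilage production, and all of its 2386 exon bases lie inside the long non-coding RNA AT1G76878 on the opposite strand, which had 6, 0 and 0 counts in dof4.1-3 and 0 and 2 in Col-0. Reads were counted without strand, and reads that fell on more than 1 gene made up 3.09% to 3.46% of dof4.1-3 counts and 3.79% to 3.92% of Col-0 counts. Throughout the table, each of the 367 protein-coding genes whose exon bases are all shared with other genes was at 0 in all 5 libraries. Among protein-coding genes that share none, 3259 of 19899 (16.4%) were at 0, and among those that share some, 678 of 7178 (9.45%). Reads of MYB5 or DF1 cannot be told apart from those of the antisense partner in such a count, and no level is given for either.

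**Figure D3:**
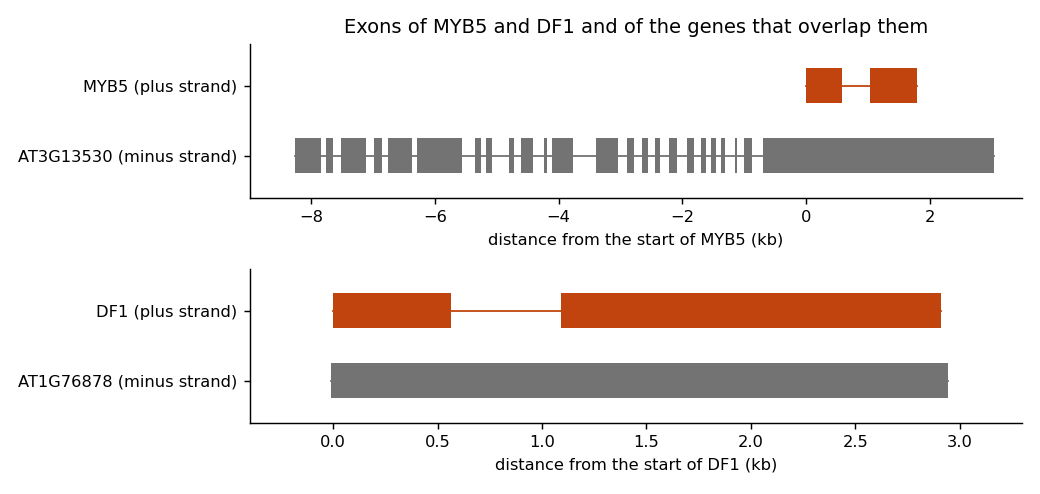
Exons (boxes) and introns (lines) of MYB5 and DF1 and of the opposite-strand genes that overlap them, to scale in kb from the start of each regulator. Both exons of MYB5 and both exons of DF1 lie wholly inside exons of the partner gene.

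Of 8 genes that members are reported to act on, 7 were tested and had lower levels in dof4.1-3, though none passed edgeR, and PMEI14 was listed at 0 in all libraries. In the 7 every dof4.1-3 library was under both Col-0 libraries, as in 18.3% of all tested genes, and their median log2 fold change was -0.56, against 0.03 for all tested genes. MUM4, the rhamnose synthase gene that GL2 is known to activate, had 226, 216 and 253 CPM in dof4.1-3 and 466 and 323 CPM in Col-0 (log2 fold change -0.77, standard error 0.23, adjusted p = 0.145 by edgeR and 0.0312 by DESeq2). PMEI6, a pectin methylesterase inhibitor gene known as a MYB52 target, had 4.15, 5.80 and 11.4 CPM in dof4.1-3 and 24.3 and 17.0 CPM in Col-0 (log2 fold change -1.54, standard error 0.39, adjusted p = 0.106 by edgeR and 0.00909 by DESeq2). These were the 2 targets that DESeq2 called, and with a library left out it called 0 to 2: 0 without either Col-0 library, 1 without dof4.1-3 replicate 1 or 3, and 2 without dof4.1-3 replicate 2.

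MUM1 is known to promote MUM2, SBT1.7 and BXL1, which encode a beta-galactosidase, a subtilisin-like protease and a bifunctional beta-xylosidase of the mucilage. MUM2 had 80.2, 101 and 65.8 CPM in dof4.1-3 and 121 and 119 CPM in Col-0 (log2 fold change -0.54, standard error 0.22). SBT1.7 had 1551, 1677 and 1843 CPM in dof4.1-3 and 3033 and 2272 CPM in Col-0 (-0.65, standard error 0.27). BXL1 had 334, 398 and 375 CPM in dof4.1-3 and 537 and 551 CPM in Col-0 (-0.56, standard error 0.21). Their adjusted p-values by edgeR lay between 0.245 and 0.274. The log2 fold change of MUM1 itself had the opposite sign, but its direction is not established: 0.35 (edgeR adjusted p = 0.413), or 0.13 with the length trend removed. The xylan gene IRX9, tied to KNAT7, had a log2 fold change of -0.48 (edgeR adjusted p = 0.351) and HDG2, of the GL2 family, -0.39 (edgeR adjusted p = 0.424).

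Of 27 genes of mucilage synthesis and modification, 26 were tested, 0 were called by edgeR, and DESeq2 called 6 lower and 0 higher, against 2.96% and 1.22% of all genes. The 27 include the targets MUM4, PMEI6, PMEI14, MUM2, SBT1.7 and BXL1, so the counts of the target list and of this list are not separate evidence. With a library left out DESeq2 called 0 lower without Col-0 replicate 1, 1 without Col-0 replicate 2, 2 without dof4.1-3 replicate 1 or 3, and 4 without dof4.1-3 replicate 2. At an unadjusted p under 0.05 edgeR had 13 lower and 1 higher, against 9.52% and 6.33% of all tested genes, and 19 had every dof4.1-3 library under both Col-0 libraries, against 18.3%. The median log2 fold change was -0.49, against 0.03 for all tested genes. The 6 are MUM4 and PMEI6 and, named after their values were seen, URGT2 (a UDP-rhamnose/UDP-galactose transporter, -0.84), MUCI21 (a xylosyltransferase, -0.81), MUCI10 (a galactosyltransferase of galactoglucomannan, -0.69) and CESA10 (a cellulose synthase, -0.66). Of 21 partner regulators, which include the bHLH and WD40 proteins of the MYB5 complex, 19 were tested, 0 were called by edgeR, and the median was -0.19. In 7 of the 19 every dof4.1-3 library lay under both Col-0 libraries and in 3 above, against 18.3% and 16.3% of all tested genes. DESeq2 called GTL1, a trihelix factor of the same family as DF1, higher, with 13.3, 18.6 and 17.7 CPM in dof4.1-3 and 5.86 and 8.08 CPM in Col-0 (log2 fold change 1.24, edgeR adjusted p = 0.0544). Another partner, OFP4, was listed at 0 in all libraries. Of 22 close relatives of the members, 20 were tested and 0 were called by edgeR, with a median of 0.13. DESeq2 called SNZ of the AP2 family higher (log2 fold change 1.97, edgeR adjusted p = 0.134) and MYB56 lower (-0.88, edgeR adjusted p = 0.0825). GTL1, SNZ and MYB56 were named after their values were seen, and with a library left out DESeq2 called 0 to 2 partner regulators higher, 0 to 1 close relatives higher and 0 to 2 close relatives lower.

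**Figure D4:**
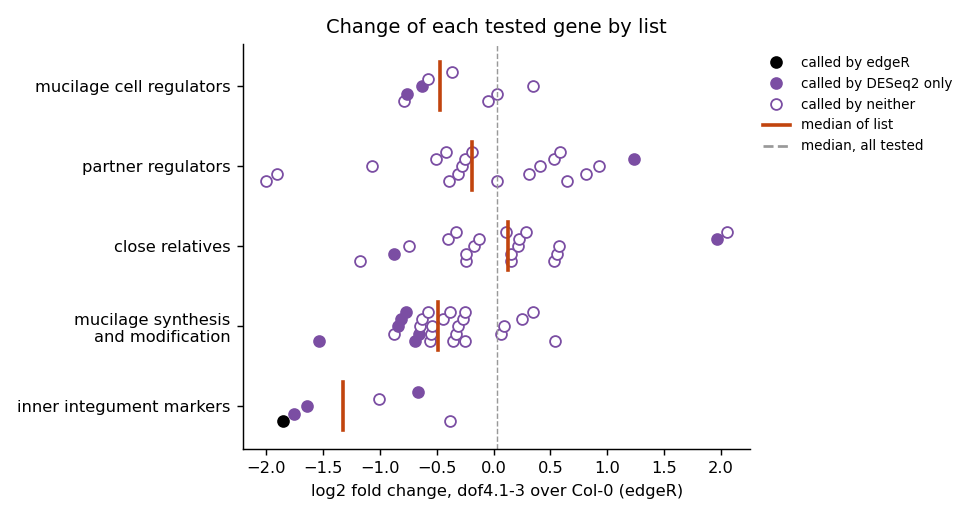
Log2 fold change by edgeR, dof4.1-3 over Col-0, of each tested gene of 5 lists, with the median of each list as a bar and the median of all tested genes (0.03) as a dashed line. Black marks a call by edgeR, filled purple a call by DESeq2 only and open circles neither. The medians are -0.47 for the 8 regulators, -0.49 for mucilage synthesis and modification and -1.32 for the inner integument markers, against -0.19 for partner regulators and 0.13 for close relatives.

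Markers of several seed tissues differed between the genotypes alongside the members. For the counts that follow, edgeR called 0.963% of all tested genes lower and 0.121% higher, and DESeq2 called 2.96% lower and 1.22% higher. A negative log2 fold change was found in 9011 of 19003 tested genes. The 7 seed coat epidermis markers summed to 2499, 2528 and 2765 CPM in dof4.1-3 and 4543 and 3383 CPM in Col-0. Most of each sum was SBT1.7, with 1551, 1677 and 1843 CPM in dof4.1-3 and 3033 and 2272 CPM in Col-0. Of the 7, 0 were called by edgeR and 3 were called lower by DESeq2 (MUM4, PMEI6 and MUCI10). All 7 are also among the 27 genes of mucilage synthesis and modification, so these 3 calls were already counted there. The 7 inner integument markers summed to 644, 570 and 679 CPM in dof4.1-3 and 1092 and 1004 CPM in Col-0. Nearly all of it was TT10, with 606, 545 and 625 CPM in dof4.1-3 and 988 and 892 CPM in Col-0 (edgeR adjusted p = 0.189). Of the 6 tested, all had a negative log2 fold change, 1 (BAN) was called by edgeR and 4 were called lower by DESeq2. BAN, the anthocyanidin reductase that defines the inner layer, fell to 14.3, 9.71 and 11.7 CPM in dof4.1-3, against 41.4 and 44.8 CPM in Col-0 (log2 fold change -1.85, edgeR adjusted p = 0.0105). Embryo markers summed to 72436, 167599 and 137067 CPM in dof4.1-3 and 53589 and 30636 CPM in Col-0, sums carried by storage protein and oleosin genes. Of the 9, 7 had a positive log2 fold change, and DESeq2 called 5 higher and 1 (LEC1) lower, while edgeR called 0 higher. The embryo regulator LEC1, the single embryo marker that edgeR called, fell to 19.0, 15.6 and 22.9 CPM in dof4.1-3, against 56.5 and 46.4 CPM in Col-0 (log2 fold change -1.42, edgeR adjusted p = 0.0209, or 0.0616 once the trend over length was removed). Without Col-0 replicate 2 edgeR called 0 genes in the table, BAN and LEC1 included. Endosperm markers summed to 6514, 6047 and 16689 CPM in dof4.1-3 and 6396 and 6825 CPM in Col-0, nearly all of it EPR1, with 6341, 5960 and 16537 CPM in dof4.1-3 and 6169 and 6577 CPM in Col-0. Of the 5 endosperm markers tested, 4 had a negative log2 fold change (median of the 5 -0.91), 0 were called by edgeR and 2 (ZOU and ALE1) were called lower by DESeq2. No marker of these 4 lists was at 0 in all libraries, and the part of tissue proportions or seed stage in the members' values was not tested.

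The members were also set against the mean log2 CPM of the 7 epidermis markers in the same library. That mean was 6.66, 6.65 and 6.99 in dof4.1-3 and 7.74 and 7.38 in Col-0. A member with near-equal levels therefore has a higher ratio in dof4.1-3 by construction, and the ratios restate the fold changes on another scale. KNAT7, MYB61 and GL2 had similar ratios in both genotypes: the log2 ratio in dof4.1-3 minus that in Col-0 was 0.03 for KNAT7, 0.16 for MYB61 and 0.20 for GL2, and their groups overlapped. For KNAT7 the ratios were -1.11, -1.07 and -1.26 in dof4.1-3 and -1.33 and -1.02 in Col-0. NARS1 and MYB52 overlapped as well, at 0.43 and -0.13. AP2, TTG2 and MUM1 did not: their log2 ratios were higher in every dof4.1-3 library, by 0.83, 0.73 and 1.14. The share of all tested genes that separate in this way was not computed. For MUM1 they were -0.93, -1.20 and -1.40 in dof4.1-3 and -2.63 and -2.01 in Col-0. These ratios are a description without a test, since several of the 7 markers are themselves reported targets of members and all 7 had a lower fitted level in dof4.1-3.

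**Figure D5:**
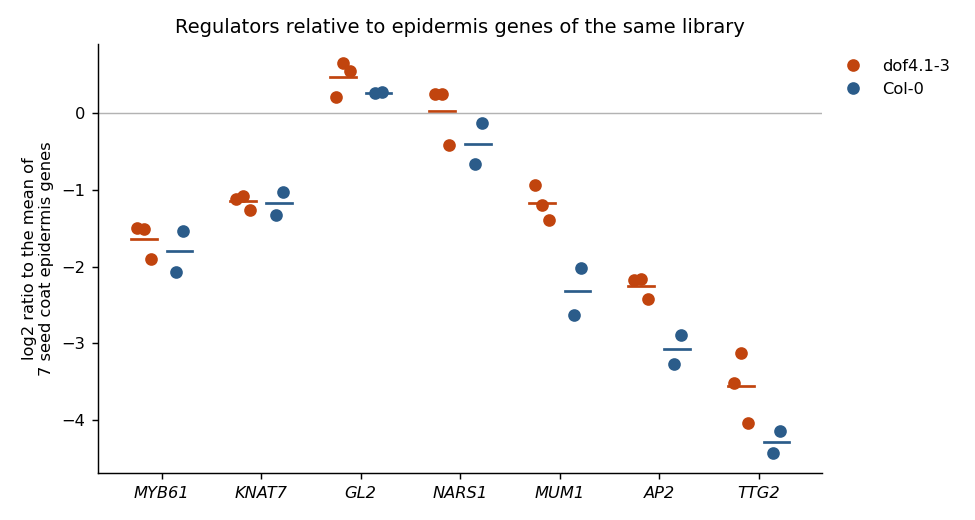
Log2 ratio of 7 regulators to the mean log2 CPM of 7 seed coat epidermis genes in the same library, dof4.1-3 left of Col-0 for each gene, points for libraries and lines for group means. MYB61, KNAT7, GL2 and NARS1 overlap between genotypes, whereas MUM1, AP2 and TTG2 lie higher in all 3 dof4.1-3 libraries, by 1.14, 0.83 and 0.73 on the log2 scale. The mean of the epidermis genes is itself lower in all 3 dof4.1-3 libraries, so a gene with near-equal levels has a higher ratio there by construction. MYB52, with few counts, is not drawn.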

How the data were processed

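Per the labels and methods, the authors used cutadapt and FastQC on the reads, HISAT2 for mapping to TAIR10, HTSeq for unstranded counts per gene, and DESeq2 to compare genotypes. For tool versions, annotation release and HTSeq overlap mode, nothing is given in the sources used here. Raw counts of 37336 genes were deposited. The 5 summary lines (0.727% to 1.74% of counts without a feature, 3.09% to 3.92% ambiguous) and 9 blank lines were left out.

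Libraries were grouped by the genotype in the labels. Genes passing filterByExpr were scaled by TMM and tested in edgeR 4.0.16 (limma 3.58.1, R 4.3.3) by the quasi-likelihood F test (robust=TRUE), with no term but genotype, adjusted by Benjamini-Hochberg over 19003 genes. The standard error is the log2 fold change divided by the square root of F. Alternatives were DESeq2 1.42.0, limma-voom, RLE and upper-quartile factors, robust=FALSE, no filter, at least 10 counts in every library, scaling without the 50 most abundant genes, a trend over transcript length removed by lowess offsets (span 0.3), the replicate number as a block, block and length together, and each library left out. DESeq2 with each library left out was added after seeing the data. The edgeR, DESeq2, limma-voom and length-adjusted fits were tested on simulated data.

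Exon overlaps, lengths and promoter windows came from RefSeq TAIR10.1, which held 37051 of the gene IDs, all 10 members, and lengths for 99.3% of tested genes. The members and gene lists were chosen with earlier results of these data known. Named genes are the members, DOF4.1, called genes of each list (up to 6), reported targets of members, and marker genes that define a tissue, and others are said to be named after their values were seen. Python 3.11.15 and matplotlib 3.10.9 drew the figures.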

Additional observations from a re-analysis of the deposited data

How the results depend on the processing

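Over 16 alternatives with an edgeR, DESeq2 or limma-voom fit, the log2 fold changes of KNAT7 (-0.82 to -0.71), MYB61 (-0.71 to -0.54), GL2 (-0.96 to -0.39), MYB52 (-1.32 to -0.49) and NARS1 (-0.45 to -0.26) stayed negative and that of MUM1 (0.11 to 0.48) positive. TTG2 and AP2 lay near 0 and changed sign: TTG2 was 0.063 with the replicate block, 0.031 with block and length trend removed, and -0.21 to 0.077 with a library left out, and AP2 was -0.019 with block and length trend removed. Of the members, 2 were called lower by DESeq2 and 1 (KNAT7, adjusted p = 0.0454) without the filter. With libraries left out in turn 0 were called by edgeR and 0 to 1 by DESeq2. Counts over the whole table were less stable: 590 lower and 244 higher by DESeq2, 565 and 170 without the filter, 44 and 10 with the length trend removed, and 2 and 2 with block and length trend removed. With a library left out they ran from 0 to 806 lower and 0 to 277 higher over both tools. By edgeR they were 0 and 0 once Col-0 replicate 2 was left out and 2 and 1 once Col-0 replicate 1 was. They were 338 and 162 when the mutant library left out was dof4.1-3 replicate 1, 707 and 181 when it was replicate 2, and 51 and 4 when it was replicate 3. Without a Col-0 library the lone sample is assumed to vary like the mutant group. The cause of these shifts was not tested. Whether replicate numbers pair the libraries cannot be told from these counts. Deviations of same-numbered libraries from their group mean correlated at -0.32 in both pairs. With 2 Col-0 libraries, the deviations of one mirror those of the other, so the pairs are not separate evidence. The replicate block called 0 members and 175 genes lower and 29 higher. Replicate number 3 exists only for dof4.1-3, so the block takes that library out of the genotype difference. Its fold changes were thus close to those without dof4.1-3 replicate 3, with KNAT7 at -0.82 in both. MYB52, with 14 to 38 counts, is limited by depth and by the spread among dof4.1-3 libraries.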
